A study of Mus musculus with 2 samples.

Results

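Neutrophils were picked out of the small intestine by a marker rule applied to every cell barcode, and they numbered 67 of 12652 barcodes, 60 in the library of the Tg mouse and 7 in the library of the FMTg mouse. A member had at least 500 UMIs (unique molecular identifiers, each counting 1 captured transcript) at any mitochondrial share. It also had at least 10 UMIs of S100a8 and S100a9 together, at least 1 UMI of Csf3r, Cxcr2, Retnlg and G0s2 together, under 5 UMIs of the monocyte genes Fn1, Vcan, Chil3 and Arg1 together, and at most 1 UMI of the epithelial gene Epcam. The Tg mouse was Mdm2+/- Cag-CreERTg and the FMTg mouse Mdm2FM/- Cag-CreERTg. Both carried 1 Mdm2 allele written as minus and the same tamoxifen-inducible Cre, driven by the broadly active CAG promoter, so that the construct is not limited to neutrophils. Both mice were C57BL/6j, 60 days old, and were given tamoxifen once, at 6 mg for each 40 g of weight, 24 hours before fresh small intestine was collected. The title of the series places acute p53 activation through loss of Mdm2 in the FMTg state. With 1 library per genotype there is no replicate check, no test was possible, and every interval given is at 95% and covers counting error only.

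Neutrophils are short-lived white blood cells made in the bone marrow, released under the control of the growth factor receptor encoded by Csf3r, and drawn into tissue by chemokines that bind CXCR2. They store proteases and antimicrobial proteins in granules whose transcripts are mostly made and lost before the cell leaves the marrow. Mature neutrophils keep high levels of calprotectin, the calcium-binding pair encoded by S100a8 and S100a9, and on activation they make interleukin-1 beta and chemokines. Mdm2 encodes the ubiquitin ligase that restrains p53.

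The sequences just upstream of 3 genes on which the account turns are shown because these genes lead the neutrophils for different reasons, S100a9 by level, Retnlg by its ratio to other cells and Il1b as the main cytokine. Each is the 250 bases before the start in the RefSeq table for build GRCm38.p6, read on the gene's strand from 5′ to 3′. Capitals mark matches, on either strand, to TATAAA (the TATA box), TTGCNNAA (a relaxed C/EBP core) or GAGGAAGT (a PU.1 core), and no printed match overlaps another. The windows lie at chr3:90695722-90695971 on the minus strand for S100a9, chr16:48872358-48872607 on the plus strand for Retnlg and chr2:129371140-129371389 on the minus strand for Il1b, and none overlaps an exon annotated by GENCODE vM21.
S100a9: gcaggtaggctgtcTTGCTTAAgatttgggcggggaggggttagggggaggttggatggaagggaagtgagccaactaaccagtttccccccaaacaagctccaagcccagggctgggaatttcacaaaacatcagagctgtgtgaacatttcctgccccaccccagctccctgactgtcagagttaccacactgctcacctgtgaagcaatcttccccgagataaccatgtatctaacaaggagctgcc
Retnlg: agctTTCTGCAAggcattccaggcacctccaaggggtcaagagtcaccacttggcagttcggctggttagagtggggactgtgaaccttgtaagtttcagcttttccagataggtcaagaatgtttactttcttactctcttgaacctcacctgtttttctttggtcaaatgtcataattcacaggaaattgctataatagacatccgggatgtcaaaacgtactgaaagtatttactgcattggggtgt
Il1b: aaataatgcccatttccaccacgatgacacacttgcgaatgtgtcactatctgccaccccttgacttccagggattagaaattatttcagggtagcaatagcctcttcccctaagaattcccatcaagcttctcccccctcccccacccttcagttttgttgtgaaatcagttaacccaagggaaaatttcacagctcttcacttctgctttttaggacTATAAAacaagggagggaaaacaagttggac
Among the 20 genes with the highest ratio of neutrophils to other barcodes, 16 had a window of 300 bases in the table (250 before and 50 after the start). TATAAA was present on either strand in 4 of these 16 (25%), against 15.7% of 27025 genes. On the gene's strand within the last 50 bases before the start it was present in 2 of 16 (12.5%), Il1b and S100a8, against 3.15% of all genes. TTGCNNAA was present in 3 of 16 (18.8%) against 12.2%, and GAGGAAGT in 1 of 16 (6.25%), S100a8, against 3.69%. These are descriptions of letters in short windows.

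Neutrophils made up a far larger share of the Tg library than of the FMTg library. The 60 Tg cells were 0.957% of 6270 barcodes (exact binomial interval 0.731 to 1.23), and the 7 FMTg cells were 0.110% of 6382 (0.0441 to 0.226). The share was 8.72 times as high in Tg (3.98 to 22.6). Among barcodes with a UMI of Ptprc, the gene of the leukocyte antigen CD45, it was 1.97% in Tg (55 of 2792) and 0.240% in FMTg (7 of 2918). Among barcodes with at most 25% mitochondrial UMIs it was 1.55% (48 of 3088) and 0.176% (5 of 2837). Macrophages, defined by at least 5 UMIs of the monocyte sum and at least 1 of Csf1r, Ccr2, Adgre1, C1qa and C1qb with at most 1 of Epcam, differed in the same direction, 156 in Tg and 30 in FMTg, a share ratio of 5.29 (3.56 to 8.11). Lymphoid and epithelial cells did not follow, with share ratios of Tg to FMTg of 0.962 (0.898 to 1.03) for T cells, 0.780 (0.703 to 0.865) for B cells and 1.03 (0.978 to 1.08) for epithelial cells. Whether the mouse, the dissociation, the amount of blood in the tissue or the droplet capture set these numbers cannot be told apart, since each genotype is 1 preparation.

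**Figure D1:**
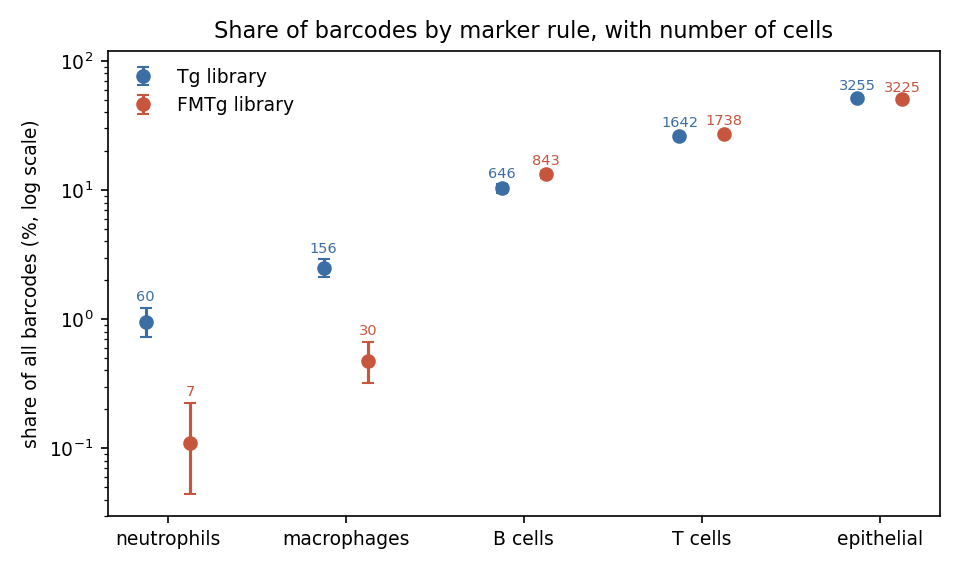
Share of all barcodes taken by each class in the Tg (blue) and FMTg (red) libraries, on a log scale, with the number of cells printed above and bars giving the exact 95% binomial interval. Neutrophils (60 and 7) and macrophages (156 and 30) stand apart between the libraries, while T cells and epithelial cells lie close together.

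Most members lay far above the calprotectin limit and a few lay just above it. The sum of S100a8 and S100a9 was 12, 156.5 and 822 UMIs (lowest, median and highest) across Tg cells. Across FMTg cells it was 25, 70 and 642 UMIs. Just below the limit, 2 Tg and 3 FMTg barcodes met every other criterion with 5 to 9 UMIs, the highest of them with 8 in either library. The second marker sum had a lowest, median and highest value of 1, 10 and 145 among Tg cells and 2, 13 and 100 among FMTg cells. It removed 44 Tg and 6 FMTg barcodes that had calprotectin alone, the monocyte sum removed 14 and 1 more, and Epcam removed 9 and 0. The 9 removed by Epcam held 2023 to 50296 UMIs. Of the members 14 Tg cells and 1 FMTg cell carried 1 Epcam UMI. The libraries shared 14 cell barcodes and none of them was a neutrophil.

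These were shallow cells. Tg neutrophils held a median of 2435.5 UMIs, between 953 and 6307, and FMTg neutrophils 2186, between 1462 and 3065, against 11960 and 10977 in macrophages and 4950 and 4604 in T cells. The median neutrophil had 861 genes detected in Tg and 817 in FMTg. The mitochondrial share ran from 4.54% to 82.4% with a median of 15.1% in Tg, and from 6.49% to 50.6% with a median of 18.4% in FMTg. All neutrophils together held 157087 UMIs in Tg and 16363 in FMTg, so 3 UMIs were worth 183 CPM (UMIs per 1000000 UMIs of the class) in FMTg and 19.1 CPM in Tg.

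The label neutrophils rests on the levels of genes that the rule did not use, such as Mmp9 and Hdc. Calprotectin, which the rule required, took 9.51% of all neutrophil UMIs in Tg and 9.01% in FMTg. Of 37 further neutrophil genes present in the files, 35 had a UMI, against 8156 of all 31053 genes. That count cannot bear on the label, since 11 of 11 B cell genes and 14 of 14 enterocyte genes had a UMI too. Mmp9, which encodes gelatinase B, was at 1400.5 CPM in Tg, with 220 UMIs in 55 of 60 cells, and at 1895 CPM in FMTg, with 31 UMIs in 6 of 7 cells. All other barcodes stood at 1.44 CPM. Hdc, the histamine-making enzyme, was at 1184 CPM in Tg and 367 in FMTg against 0.753 elsewhere. Ly6g, whose product is the usual surface marker of mouse neutrophils, had 32 UMIs in 14 Tg cells and 2 UMIs in 2 FMTg cells, against 0.0772 CPM elsewhere. Ifitm1, an interferon-induced transmembrane gene, reached 6054 CPM in Tg and 5439 in FMTg with a UMI in 56 of 60 and 7 of 7 cells. Clec4d and Clec4e, lectin receptors of myeloid cells, Lrg1 and the decoy receptor gene Il1r2 were each found in at least 38 of 60 Tg cells and at least 4 of 7 FMTg cells. Some listed genes were also common in macrophages. Wfdc17 and Slpi, described below, had a UMI in 92.3% and 44.2% of Tg macrophages, Ifitm1 in 19.9% and Mmp9 in 4.49%.

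Genes defining dendritic cells, mast cells and eosinophils were at or near 0, while some macrophage, monocyte and lymphocyte transcripts were found. The dendritic cell list had no UMI in any of 8 genes, and the mast cell and basophil list 1 UMI over 10 genes. Of 9 eosinophil genes only Siglecf was seen, with 2 UMIs in Tg and 2 in FMTg, while Prg2, Epx and Ccr3 were at 0. The macrophage genes C1qa, C1qb, C1qc, Mrc1, Ccr2, Ms4a7 and F13a1 were at 0 in all 67 cells. The list of 15 macrophage and monocyte genes summed to 204 UMIs in 43 Tg cells and 8 UMIs in 4 FMTg cells, mostly Lyz2 (110 and 3) and Ly6c2 (40 and 0). Chil3, which the rule limits, gave 4, 1 and 2 UMIs in 3 of the FMTg cells and 2 UMIs in all Tg cells. B cell genes summed to 127 UMIs in Tg, of which 97.6% lay in 6 cells, and 2 Tg cells had at least 3 such UMIs. T cell genes summed to 73 UMIs in 37 Tg cells, with at most 5 in a cell, and 1 UMI in FMTg, or 465 and 61.1 CPM against 43876 and 30734 CPM in T cells. No neutrophil had 3 UMIs of Cd3 genes. The part of these transcripts in the gene ratios between the libraries was not tested, apart from leaving out the cells with 3 UMIs of B cell or Cd3 genes.

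Epithelial transcripts were present in every neutrophil. The enterocyte list of 14 genes gave 4, 16.5 and 48 UMIs per Tg cell (lowest, median and highest) and 6, 10 and 58 per FMTg cell. Reg3b, a secreted antimicrobial lectin of enterocytes, was found in all 67 cells, with 3648 CPM in Tg cells and 2445 CPM in FMTg cells. B cells, which should lack it as well, had a Reg3b UMI in 99.4% of Tg and 92.2% of FMTg cells, at median depths of 3550.5 and 3437 UMIs. The whole enterocyte list stood at 6773 and 7028 CPM in neutrophils, below the 8862 and 9713 CPM in B cells and the 12451 and 13488 CPM in T cells. Enterocyte genes are therefore not read as expressed by neutrophils, and whether they came from free RNA or from epithelial cells caught with a neutrophil was not tested. The FMTg cell with 58 enterocyte UMIs held 1462 UMIs in all.

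**Figure D2:**
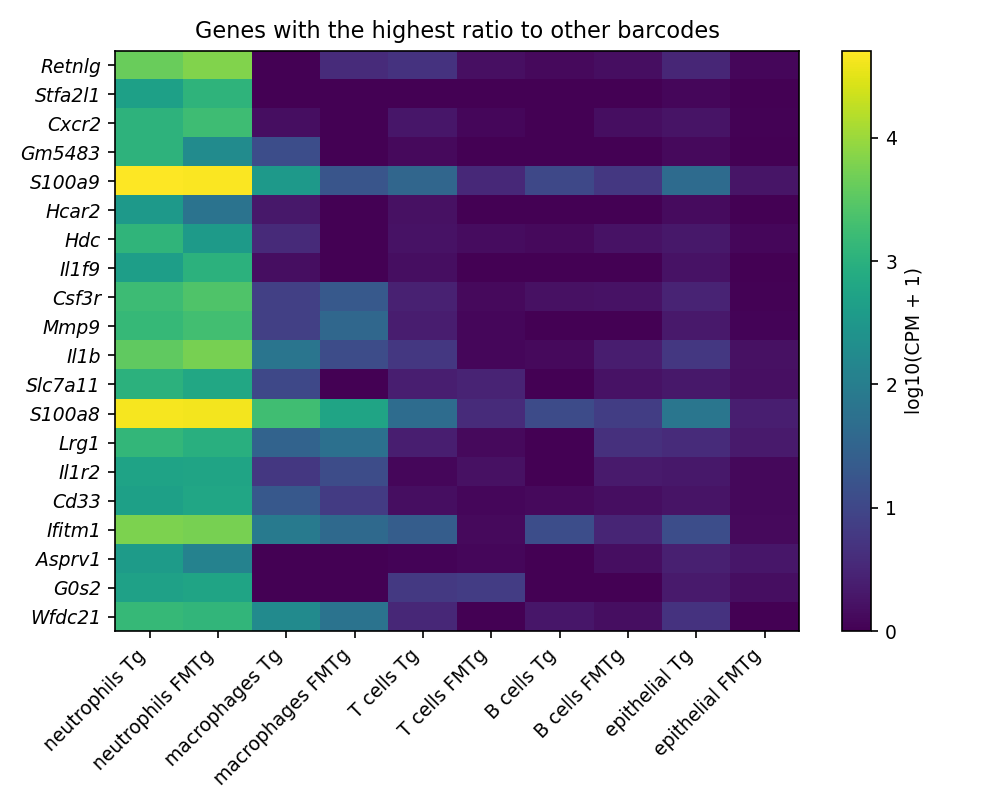
CPM, as log10(CPM + 1), of the 20 genes with the highest ratio of neutrophils to all other barcodes, in 5 classes of each library. The colour falls sharply outside the first 2 columns. S100a8 keeps 1854 CPM in Tg macrophages and 569.8 in FMTg macrophages, and S100a9 338 and 16.8.

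The leading genes by ratio to all other barcodes were Retnlg (a resistin-like secreted protein, 3919.5-fold), Stfa2l1 (3705-fold), Cxcr2 (2235-fold), Gm5483 (2103-fold) and S100a9 (1926-fold). Of 430 genes with at least 50 neutrophil UMIs, 121 (28.1%) were at least 10-fold higher in neutrophils. These ratios describe the cells, which were chosen by several of these genes. Stfa2l1 and Gm5483 belong to the stefin A cluster of near-identical protease inhibitors, where reads can be split between copies, so their separate values are uncertain. Hcar2 (a niacin and ketone receptor), Slc7a11 (a cystine transporter) and Il1f9 (interleukin-36 gamma) also ranked among the first 12, at 0.203, 1.49 and 0.434 CPM in other barcodes and at 337, 1050.4 and 439 CPM in Tg neutrophils.

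Calprotectin RNA was also found outside the neutrophils, and there too it was higher in Tg. S100a8 stood at 122 CPM in all other Tg barcodes and 6.77 CPM in all other FMTg barcodes, and S100a9 at 48.6 and 1.95 CPM. A UMI of S100a8 was present in 4.87% of Tg and 1.5% of FMTg T cells, in 5.11% and 2.14% of B cells, and in 6.64% and 1.64% of epithelial cells. Macrophages stood apart by share of cells, since 54.5% of them in Tg and 63.3% in FMTg carried S100a8. They held 3531 of the 6547 Tg and 204 of the 337 FMTg UMIs of S100a8 outside the neutrophils. Epithelial cells held 2802 of these UMIs in Tg (42.8%), within 216 cells, and 55 in FMTg (16.3%), within 53 cells. That class includes the 9 Tg barcodes that Epcam removed from the neutrophils. How much of the calprotectin RNA outside the neutrophils was free RNA was not tested.

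The comparison of FMTg with Tg neutrophils rests on 7 cells against 60, and the background for any list is wide. Of 1047 genes with at least 20 UMIs over both libraries, 18.0% were at least 1.5-fold higher in FMTg and 30.9% at least 1.5-fold lower. With a counting interval that also excluded no difference, 3.44% were higher and 5.16% lower. The median log2 ratio of FMTg to Tg over all tested genes was -0.22, and 66 tested genes had no UMI in FMTg and count as lower. A log2 ratio below is always FMTg over Tg on CPM. For some genes, Il1b and Retnlg among them, 1 cell holds a large part of the FMTg UMIs. The value without the highest cell of each library is given for these and some others, but not for every gene. The 13 mitochondrially encoded genes tested were all higher in FMTg with a counting interval above 0, 4 of them at least 1.5-fold, and together they took 18.3% of the Tg and 24.9% of the FMTg neutrophil UMIs. In the 7 FMTg cells, ordered by calprotectin share, they took 6.49%, 16.3%, 40.9%, 50.6%, 24.8%, 18.4% and 11.1%, against a Tg median of 15.1%. The FMTg sum thus rests largely on 2 cells, and these genes were not tested without them. When CPM was scaled without mitochondrial, ribosomal and calprotectin UMIs the median over all genes moved to -0.10, and the medians of the oxidase, interferon and glycolysis lists described below were -0.88, -1.08 and -0.999. The part of RNA quality in these ratios was not tested beyond this.

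**Figure D3:**
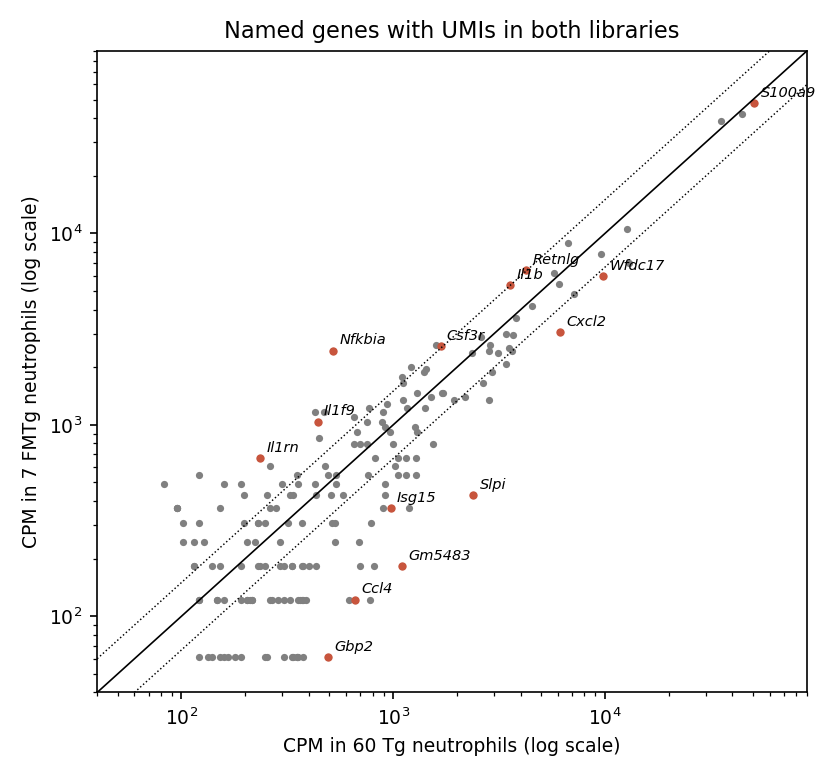
CPM of the named genes in FMTg neutrophils against Tg neutrophils, on log scales, for genes with at least 20 UMIs over both libraries and at least 1 in FMTg. The solid line marks equality and the dotted lines 1.5-fold. S100a9 lies on the line, Nfkbia lies above it and Slpi, Gm5483 and Gbp2 lie below it. The separate value of Gm5483 is uncertain, since its reads can be split with Stfa2l1. The lowest row of points is 1 UMI in FMTg.

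Summed calprotectin levels lay close together in the libraries, though for S100a9 this rested on 1 FMTg cell. S100a8 gave 5, 78.5 and 440 UMIs per Tg cell (lowest, median and highest) and 229, 217, 156, 49, 12, 10 and 16 UMIs in the 7 FMTg cells, ordered by calprotectin share. S100a9 gave 1, 74.5 and 402 per Tg cell and 413, 147, 151, 21, 16, 28 and 9 in the FMTg cells. All FMTg cells lay within the Tg range for S100a8, and 1 FMTg cell exceeded it for S100a9. Summed, S100a8 stood at 44485 and 42107 CPM and S100a9 at 50647 and 47974 CPM, a log2 ratio of -0.08 (-0.19 to 0.03) for S100a8 and -0.08 (-0.19 to 0.03) for S100a9. Without the highest cell of each library, which in FMTg held 413 UMIs, the log2 ratio of S100a9 was -0.82. The median calprotectin share of a cell was 8.04% in Tg and 2.75% in FMTg. S100a8 and S100a9 chose the cells, so their levels carry a floor.

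Retnlg was unevenly spread. It was found in 42 of 60 Tg cells, with a median of 2.5 and a highest value of 134 UMIs, and 51.3% of its 669 Tg UMIs lay in 6 cells. In FMTg it gave 84, 20 and 1 UMIs in 3 cells and 0 in the other 4. The summed log2 ratio was 0.59 (0.28 to 0.89), but without the highest cell of each library it turned to -1.15. Csf3r and Cxcr2 were found in most cells. Csf3r was found in 57 of 60 Tg cells, at 0, 4 and 13 UMIs per cell, and in all 7 FMTg cells at 6, 10, 6, 2, 6, 8 and 4 UMIs, so the groups overlapped fully. Cxcr2 was found in 50 of 60 and 6 of 7 cells, with 8, 5, 5, 0, 7, 1 and 3 UMIs in FMTg. Their log2 ratios were 0.62 (0.11 to 1.09) and 0.69 (0.07 to 1.26). The sum of Csf3r, Cxcr2, Retnlg and G0s2 helped choose the cells, so the ratios of these genes carry that choice. G0s2, an inhibitor of lipolysis, was sparse, with 77 UMIs in 22 Tg cells and 9 in 2 FMTg cells. Its log2 ratio of 0.17 (-1.02 to 1.17) became -1.47 without the highest cell of each library, and with the monocyte sum held under 2 no UMI was left in FMTg.

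Granule genes of the earliest marrow stage had no UMI and those of late stages were found. None of 6 azurophil genes (Mpo, Elane, Prtn3, Ctsg, Ms4a3, Bpi), which are made in marrow promyelocytes, had a UMI in any of the 67 cells. Of the specific granule genes, Camp and Ngp were at 0 and Ltf had 1 UMI, whereas Lcn2, which sequesters bacterial iron carriers, had 157 UMIs in 27 Tg cells and 13 in 4 FMTg cells. Haptoglobin (Hp) had 225 UMIs in 51 Tg cells and 32 in 6 FMTg cells. Mmp8, neutrophil collagenase, had 34 UMIs in 11 Tg cells, 1 of which held 50% of them. Among gelatinase granule and secretory vesicle genes Mmp9 and Itgam led, with log2 ratios of 0.44 (-0.16 to 0.98) and -0.75 (-2.42 to 0.53). The 22 cell cycle genes gave 9 UMIs over all Tg cells and 0 over all FMTg cells. The specific granule list had 0 of 3 tested genes higher and 1 lower by 1.5-fold, and the gelatinase list 1 of 4 higher and 1 lower, both near the background shares.

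Chemoattractant receptor and adhesion genes showed no common direction. Of 7 tested chemoattractant receptor genes, 0 were higher and 1, Cxcr4, was lower by 1.5-fold, with a median log2 ratio of -0.06 (0.05 when scaled without mitochondrial, ribosomal and calprotectin UMIs). Cxcr4, the receptor that holds neutrophils in the marrow and rises as they age, had 34 UMIs in 20 Tg cells and 2 in 2 FMTg cells. Ccr1 was found in 53 of 60 Tg and 5 of 7 FMTg cells, and the formyl peptide receptors Fpr1 and Fpr2 in 18 and 22 Tg cells. Ccr2, the monocyte receptor, was at 0. Of 9 tested adhesion genes 2 were higher and 2 lower by 1.5-fold, against 18.0% and 30.9% of all genes. The Fc receptor and ITAM adaptor list stayed near equality, with 0 of 5 beyond 1.5-fold, and Fcer1g and Tyrobp at 0.15 (-0.32 to 0.59) and -0.08 (-0.49 to 0.31).

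The oxidase genes that power the respiratory burst were lower in FMTg in 4 of 6 tested members and higher in 1, against 30.9% and 18.0% of all genes, with a median log2 ratio of -0.99 against -0.22 over all genes. Ncf4 had 57 UMIs in 34 Tg cells and 2 in 2 FMTg cells. Ncf1 went the other way at 0.94 (-0.002 to 1.78). Rac2, the GTPase of the complex, had 143 and 7 UMIs and a log2 ratio of -1.09 (-2.43 to -0.01), the only interval in this list that excluded 0. Cybb, which encodes the catalytic subunit, had 12 UMIs in 4 Tg cells and 1 in FMTg.

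Il1b was the cytokine of nearly every neutrophil. It was found in 59 of 60 Tg cells (98.3%, exact interval 91.1 to 99.96) and in all 7 FMTg cells, against 10.9% of Tg and 6.67% of FMTg macrophages and 0.792% of Tg T cells. Tg cells held 0, 8.5 and 28 UMIs (lowest, median and highest), and the FMTg cells 11, 7, 14, 2, 6, 4 and 44. Of these FMTg cells 6 lay within the Tg range and 1 above it. Summed levels were 3571 CPM (Tg) and 5378 CPM (FMTg). Their log2 ratio was 0.59 (0.25 to 0.92) and turned to -0.18 without the highest cell of each library. Its level in macrophages was 65.6 CPM in Tg and 11.2 in FMTg. Il1rn, which encodes the receptor antagonist of interleukin-1, was higher in FMTg at 1.51 (0.39 to 2.51), with 37 UMIs in 24 Tg cells and 11 in 4 FMTg cells. Il1f9 was at 1.24 (0.38 to 2.02), with 69 UMIs in 32 cells and 17 in 4. Ptgs2, the inducible cyclooxygenase, had 30 UMIs in 13 Tg cells and 8 in 1 FMTg cell. Tnf had 8 UMIs in 7 Tg cells and 6 in 1 FMTg cell. Il6, Il10, Il1a and Nos2 were at 0 in all 67 cells.

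Of 8 tested cytokine and mediator genes 4 were at least 1.5-fold higher in FMTg and 0 at least 1.5-fold lower, against 18.0% and 30.9% of all genes. The list median was 0.43 and its summed log2 ratio 0.45 (0.20 to 0.69). The median changed sign, to -0.39, when the monocyte sum was held under 2, which left 5 FMTg cells, and to -0.24 over all members with a UMI. The direction of this list therefore rests on few FMTg cells.

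Cxcl2, a CXCR2 ligand that neutrophils make themselves, was abundant and lower in FMTg. It was found in 54 of 60 Tg cells, at 0, 14.5 and 60 UMIs per cell, and in 5 of 7 FMTg cells, at 0, 4, 10, 0, 4, 7 and 25 UMIs. The FMTg values all lay within the Tg range, mostly in its lower part. Levels were 6124 CPM (Tg) and 3056 CPM (FMTg). The log2 ratio was -1.003 (-1.44 to -0.59), and -1.75 without the highest cell of each library. The macrophage inflammatory protein genes Ccl3 and Ccl4 and the CXCR2 ligand gene Cxcl3 were seen together in a few cells. Ccl4 had 104 UMIs in 18 Tg cells and 2 in 1 FMTg cell, a log2 ratio of -2.44 (-5.50 to -0.55). Ccl3 had 53 UMIs in 14 Tg cells and 0 in FMTg, 1.84-fold lower with FMTg set to a floor of 3 UMIs over all its cells. The floor is not a limit of the counting interval, which reached up to a log2 ratio of -0.53. Cxcl3 had 41 UMIs in 11 Tg cells and 0 in FMTg, 1.42-fold lower on that floor, with an interval reaching up to -0.15. Of the 198 UMIs of these 3 genes in Tg, 66.7% lay in 6 cells. Ccl6 was at 2184 and 1406 CPM, a log2 ratio of -0.64 (-1.31 to -0.03). Of 5 tested chemokine genes 0 were at least 1.5-fold higher and 4 lower, against 18.0% and 30.9% of all genes. The summed list was also lower in FMTg in macrophages (22682 CPM in Tg and 16388 in FMTg), T cells (19368 and 17099) and epithelial cells (2296 and 1170). In B cells it stood at 134 CPM in Tg and 150 in FMTg.

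Summed over all barcodes outside the neutrophils, transcripts of CXCR2 ligands were also lower in FMTg for 3 of 4 genes. Such sums also depend on how many cells of each class a library holds. Cxcl2 was found in 64.7% of the 156 Tg and 46.7% of the 30 FMTg macrophages. It was found in at most 2.06% of T, B or epithelial cells of either library. The part of macrophage number in these sums was not tested. Cxcl2 had 2375 UMIs in other Tg barcodes and 146 in other FMTg barcodes, Cxcl3 878 and 108, and Cxcl5 21 and 2. Cxcl1 had 35 and 37. Csf3, which encodes the granulocyte growth factor, was at 0 in both libraries, and Il17a had 1 UMI in Tg and 17 in FMTg.

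**Figure D4:**
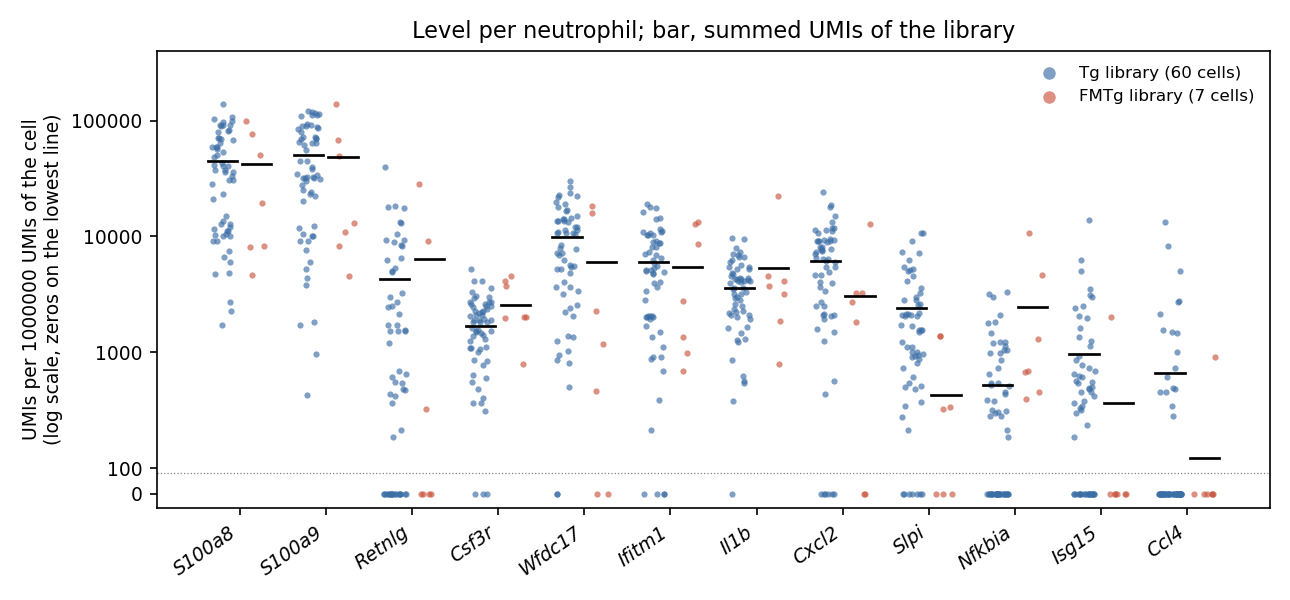
Level of 12 genes in each neutrophil, as UMIs per 1000000 UMIs of the cell on a log scale, with zeros on the lowest line and a black bar for the summed UMIs of the library. Tg cells are blue and FMTg cells red. Il1b is above 0 in 59 of 60 Tg cells and all 7 FMTg cells, whereas Retnlg, Isg15 and Ccl4 have many cells at 0 and a few very high ones.

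Among named genes with at least 20 UMIs, Slpi was the lower one and Nfkbia the higher one whose counting interval lay farthest from 0. Slpi, which encodes a secreted inhibitor of neutrophil elastase, stood at 2394 CPM (Tg) and 428 CPM (FMTg), which gives a log2 ratio of -2.48 (-3.81 to -1.43). It was found in 53 of 60 Tg cells, at 0, 4 and 38 UMIs, and in 4 of 7 FMTg cells, at 1, 3, 1, 0, 2, 0 and 0 UMIs. No FMTg cell reached the Tg median. In macrophages Slpi was higher in FMTg, at 1561 CPM against 1080.3 in Tg. Nfkbia, which encodes the inhibitor of NF-kB that NF-kB itself induces, went the other way. Tg cells held 0, 1 and 7 UMIs, with a UMI in 34 of 60, and the 7 FMTg cells held 2, 1, 4, 1, 1, 10 and 21, with none at 0. The log2 ratio was 2.23 (1.64 to 2.79), and 1.45 without the highest cell of each library. Macrophages were at 441 CPM in Tg and 310.1 in FMTg. The 10 and 21 came from the cells ranked sixth and seventh by calprotectin share, and the seventh also held the 44 Il1b and 25 Cxcl2 UMIs and 2 of Chil3.

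The NF-kB and immediate early list as a whole did not follow Nfkbia. Of 21 tested members 4 were higher and 6 lower by 1.5-fold, and the median was -0.21, close to that of all genes. Tnfaip2, induced by tumour necrosis factor, was at 1.44 (0.63 to 2.20) and found in all 7 FMTg cells. Dusp1, a phosphatase that ends MAP kinase signals, was at -0.71 (-1.25 to -0.21), and Ier5 at -2.34 (-5.40 to -0.45) with 97 and 2 UMIs. Fos and Junb, which dissociation is known to induce, were at -0.40 (-0.91 to 0.07) and -0.13 (-0.61 to 0.33). The part of dissociation in these levels was not tested.

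Interferon-stimulated genes were lower in FMTg in 13 of 21 tested members and higher by 1.5-fold in 0, against 30.9% and 18.0% of all genes. The median was -1.20 and the summed log2 ratio -0.74 (-1.03 to -0.47). Other classes went both ways. The summed list was higher in FMTg in T cells (1197 CPM in Tg and 1428 in FMTg) and epithelial cells (1404 and 2080). It was slightly lower in macrophages (6585 and 6184) and B cells (689 and 627). Gbp2, a guanylate-binding protein gene, had 77 UMIs in 36 Tg cells and 1 in FMTg, a log2 ratio of -3.00 (-8.33 to -0.48). Ifitm3, which blocks entry of viruses, was at 2826 and 1344 CPM, a log2 ratio of -1.07 (-1.76 to -0.46). Ifit3, an interferon-induced antiviral gene, had 64 UMIs in 15 Tg cells and 0 in FMTg. That is 2.22-fold lower with FMTg set to 3 UMIs, and the interval of its log2 ratio reached up to -0.81. Isg15 had 153 UMIs in 39 Tg cells and 6 in 1 FMTg cell. The Tg signal was uneven: of 377 UMIs of Ifit1, Ifit3, Ifit3b, Rsad2 and Isg15, 53.1% lay in 6 cells and 102 in 1 cell. Oasl2, Slfn1, Slfn5, Oas3 and Irf1 were above equality in FMTg but under 1.5-fold, at 0.44 (-0.45 to 1.23), 0.23 (-0.59 to 0.96), 0.46 (-0.82 to 1.53), 0.42 (-1.29 to 1.77) and 0.40 (-0.99 to 1.54).

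Glycolytic and hypoxia genes were lower in FMTg in 8 of 15 tested members and higher in 2, against 30.9% and 18.0% of all genes, with a median of -1.11 and a summed log2 ratio of -0.83 (-1.22 to -0.46). Gapdh stood at 1279.5 CPM (Tg) and 550.0 CPM (FMTg) and was the only single member whose interval excluded 0, with a log2 ratio of -1.22 (-2.37 to -0.26). Pkm, pyruvate kinase, was at -0.93 (-2.09 to 0.03) and Eno1, enolase, at -1.11 (-3.02 to 0.30). The higher members were Slc2a1, the glucose transporter, at 1.26 (-0.32 to 2.59), and Hif1a at 0.94 (-1.07 to 2.52), with 6 and 4 UMIs in FMTg. Macrophages were at 1819 CPM of Gapdh in Tg and 1486 in FMTg. The summed list was lower in FMTg in each other class too, at 9387 CPM (Tg) and 6964 CPM (FMTg) in macrophages. It stood at 2975 and 2413 CPM in T cells, 2602 and 2250 in B cells and 4938 and 4227 in epithelial cells.

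Of 7 tested transcription factor genes 1 was higher and 3 lower by 1.5-fold, against 18.0% and 30.9% of all genes. Cebpb, a regulator of emergency granulocyte production, was found in all 67 cells, at 2928 and 1895 CPM, a log2 ratio of -0.63 (-1.20 to -0.10). Cebpd was at -1.49 (-3.39 to -0.09). Spi1, the gene of PU.1, was at 0.18 (-0.77 to 1.02). Cebpe and Gfi1, which act earlier in the marrow, had 2 and 1 UMIs in Tg and 0 in FMTg. Klf2 was at 3520.3 and 2506 CPM, a log2 ratio of -0.49 (-0.99 to -0.03). Stat3 had 40 UMIs in 29 Tg cells and 0 in FMTg. That is 1.39-fold lower with FMTg set to 3 UMIs, and the interval of its log2 ratio reached up to -0.11.

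Mdm2 and p53 target genes had few UMIs in these shallow cells. Mdm2 had 10 UMIs in 9 Tg neutrophils, 63.7 CPM, and 2 UMIs in 2 FMTg neutrophils, a log2 ratio of 0.94 (-2.29 to 3.17). A 3' tag does not show whether the deleted part of Mdm2 is present, so this does not check the genotype. Trp53 had 1 UMI in Tg and 0 in FMTg. Cdkn1a, the cell cycle inhibitor that p53 induces, had 35 UMIs in 22 Tg cells and 4 in 2 FMTg cells, a log2 ratio of 0.13 (-1.82 to 1.62). Macrophages held 325 CPM of Cdkn1a in Tg and 791 in FMTg. The p53 target list summed to 2234 CPM in Tg and 2445 CPM in FMTg neutrophils, against 2246 and 4760 CPM in macrophages and 1614 and 2080 CPM in T cells. Of 39 listed p53 targets 12 had no UMI and only Cdkn1a and Btg2 reached 20, neither beyond 1.5-fold. Btg2, also an immediate early gene, made up 183 of the 351 Tg UMIs, and the other targets together stood at 1069 CPM in Tg (168 UMIs) and 1222 CPM in FMTg (20 UMIs), a log2 ratio of 0.19 (-0.56 to 0.87). With 20 FMTg UMIs that interval is wide, and it covers counting error only, so it sets no limit on what could be detected. Fas, a death receptor gene, had 12 UMIs in 9 Tg cells and 5 in 3 FMTg cells. Mcl1, on which neutrophil survival depends in mice, was found in 59 of 60 and all 7 FMTg cells at -0.22 (-0.72 to 0.25). Of 5 tested survival and apoptosis genes 1 was higher and 2 lower, near the 18.0% and 30.9% of all genes.

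Wfdc17, a small secreted protein gene and the sixth most abundant one outside mitochondrial and ribosomal genes, was at 9791 and 5989 CPM with a log2 ratio of -0.71 (-1.02 to -0.41). It had 47, 40, 7, 3, 0, 1 and 0 UMIs in the FMTg cells against a Tg median of 18.5. Without the highest cell of each library its log2 ratio was -1.31. Mcemp1, a membrane protein gene of myeloid cells, had 75 UMIs in 38 Tg cells and 0 in FMTg. That is 2.60-fold lower with FMTg set to 3 UMIs, and the interval of its log2 ratio reached up to -1.05. Among genes with UMIs in both libraries, leaving out mitochondrial and ribosomal genes, those with the lowest log2 ratios were Gbp2, Fabp1, Actr3, Gm5483, Zcchc6, Lyst, Ncor1 and Slpi, and 5 of these rested on 1 FMTg UMI. Those with the highest were Fuca2, Nfkbia, Metrnl, Cdhr5, Gm26532, Zbtb7b, Cox7a2 and Itga4, of which all but Nfkbia had under 10 UMIs in FMTg. Fabp1 and Cdhr5 are enterocyte genes. Fabp1 was at -2.67 (-5.73 to -0.78), whereas Apoa1 was at 0.72 (0.22 to 1.19) and turned to -0.40 without the highest cell of each library. Reg3b was lower in FMTg neutrophils at -0.58 (-1.08 to -0.11), and it was also lower in FMTg epithelial cells, at 16449 against 34561 CPM. MHC class II genes summed to 250 Tg and 4 FMTg UMIs, and 91.6% of the Tg UMIs lay in 6 cells.

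The 60 Tg neutrophils differed among themselves most in calprotectin and in the ferritin genes Fth1 and Ftl1, which encode the iron store of the cell. After each cell was thinned to 500 UMIs, the genes with the highest variance to mean ratio, outside mitochondrial and ribosomal genes, were S100a9 (14.5), S100a8 (13.6), Fth1 (10.5), Retnlg (4.59), Ftl1, Gm5483, Wfdc17 and Lcn2. Across the 60 cells the calprotectin share of UMIs ran from 0.343% through 8.04% to 25.7%, and in FMTg from 1.27% through 2.75% to 21.6%. Spearman's rho across Tg cells was 0.88 between the shares of S100a8 and S100a9, 0.65 between S100a8 and Wfdc21, 0.58 between S100a8 and Retnlg and 0.57 between S100a8 and Wfdc17. Retnlg went with Mmp8 at 0.55 and against Cxcr4 at -0.43. Fth1 and Ftl1 went together at 0.48 and ran weakly against S100a8, at -0.28 and -0.29. Il1b did not follow calprotectin (0.05 with S100a8). Ccl3 and Ccl4 went together at 0.44 and ran against Cxcr2 at -0.42 and -0.32, and Ifit3 and Rsad2 went together at 0.55. All these cells share 1 library and shallow counts, the shares of 1 cell compete for 1 total, and rho with depth reached 0.35 for S100a9 and -0.40 for Ftl1, so they are descriptions.

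**Figure D5:**
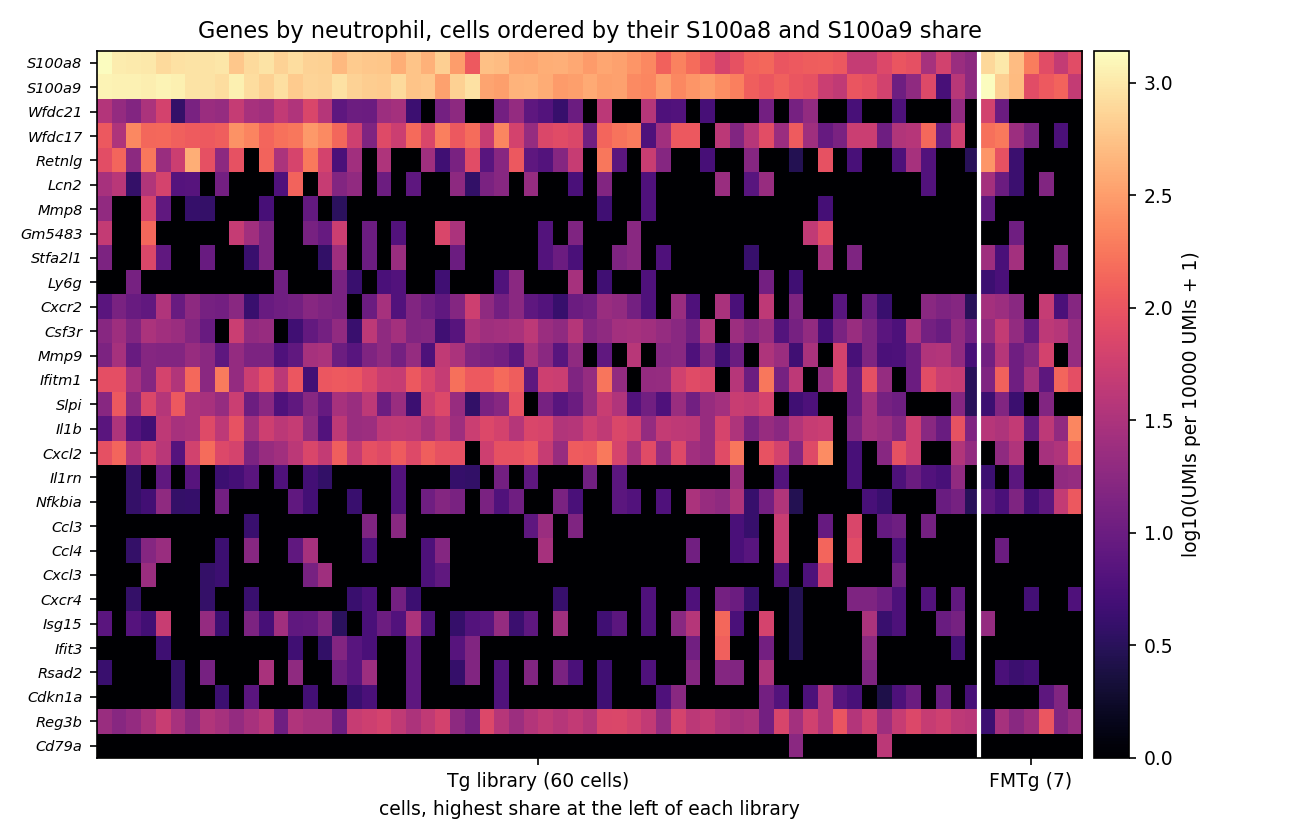
29 genes (rows) in each of the 67 neutrophils (columns), as log10(UMIs per 10000 UMIs + 1), with Tg cells left and FMTg cells right of the white line and cells ordered by calprotectin share. Wfdc21, Retnlg and Lcn2 fade from left to right in Tg, Il1b does not, Ccl3, Ccl4 and Ifit3 light up in few cells, Reg3b is present in every column and Cd79a in 2 Tg cells.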

How the data were processed

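Small intestine of 1 Tg and 1 FMTg mouse was run on the 10x Genomics Chromium 3' protocol, per the labels. The authors deposited raw UMI counts per gene and barcode, 54013005 in Tg and 49805718 in FMTg. Per the submitters' processing notes, CASAVA 1.8.1, Cell Ranger 3.0 and mm10 were used. The fewest UMIs of a barcode were 752 and 819, so the 500 limit removed none.

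Members, gene lists and the rule for named genes were chosen with earlier results of these data known. That rule takes the marker genes, Mdm2, Trp53 and Cdkn1a, the 20 most abundant genes, the 20 with the highest ratio to other barcodes, up to 4 members of each of 33 lists, the 8 highest and 8 lowest FMTg to Tg ratios and the 8 most variable genes. Other genes in the text were chosen after their values were seen. Some genes that the rule names are not reported here. UMIs were summed per class and library and scaled to CPM, with no test. Intervals are exact (Poisson, conditional binomial, Clopper-Pearson), treat UMIs as independent and so ignore the spread between cells and mice. No doublet caller was run. Alternatives numbered 11 planned and 3 added. Calculations used scipy 1.17.1 and numpy 2.4.6 with pandas 2.3.3 under Python 3.11.15, and figures matplotlib 3.10.9. GENCODE vM21 gave exons, and RefSeq tables sequences.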

Additional observations from a re-analysis of the deposited data

How the results depend on the processing

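The number of neutrophils stayed at 48 to 65 in Tg and 5 to 10 in FMTg under 8 of 9 alternatives of the rule, 2 of them (Epcam at most 3, and no cells with 3 UMIs of B cell or Cd3 genes) added after seeing the data. The ninth, leaving out cells with 3 UMIs of the T cell, B cell or enterocyte lists, as planned, left 0 cells in both libraries, a share of 0, since every neutrophil had 3 enterocyte UMIs, and no gene value could be had there. With the monocyte sum under 2, which dropped 2 FMTg cells, the log2 ratio of Il1b reversed to -0.31 and that of Retnlg to -1.21. Another alternative, also added later, left out the cell with the most UMIs of the gene in each library. There 3 ratios that had been at least 1.5-fold with an interval above 0 reversed, Il1b to -0.18, Retnlg to -1.15 and Apoa1 to -0.40. Ratios with intervals that included 0 changed sign as well, G0s2 among them, from 0.17 to -1.47. Over all alternatives Fpr1 ran from -1.51 to 0.78, Il1r2 from -1.61 to 0.27 and Cdkn1a from -1.31 to 1.14. No paired analysis was possible because each genotype has 1 library. Depth limits FMTg most: 3 UMIs over its 7 cells are 183 CPM, against 19.1 CPM in Tg.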
